A study of Mus musculus with 4 samples.

Results

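The genes described are 10 of the Kruppel-like factor (Klf) genes of the mouse, Klf2, Klf3, Klf4, Klf5, Klf6, Klf7, Klf9, Klf10, Klf13 and Klf15. Every interaction was taken that had an anchor bin on the body of one of these genes or within 2.5 kb of either end. This gave 545 of the 99041 listed interactions (0.550%). The genes all lie on different chromosomes and the list pairs bins at most 1000 kb apart, so none could be shared between 2 of them. The members were chosen by their numbers of listed interactions, which were known from earlier work on this list, so their counts are a description and no test was made of them.

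The list comes from HiChIP, in which chromatin fragments that lie close together in the nucleus are ligated and then enriched with an antibody, here against H3K27ac, a histone mark of active promoters and enhancers. The labels give 2 libraries of YAP-M tumor, brain tumor tissue with the genotype YAP-M fusion, and 2 libraries of wild-type mouse neural stem cells kept in medium with EGF, basic FGF and heparin. YAP-M joins YAP1, a transcriptional co-activator restrained by the Hippo pathway, to MAMLD1. The letters YM in the name of the list are taken to mean the tumor, but its header ties it to no library. The sources used here do not state the age of the animals, the promoter that drives the fusion or whether tumors were pooled. Neural stem cells were not analysed here. Each row is a pair of 10 kb bins of mm10, 20 to 1000 kb apart, with no read count or score, so depth is unknown and no value has a replicate error. In bulk libraries, a contact made in few cells cannot be told apart from a weak contact made in many.

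Kruppel-like factors bind GC-rich and CACCC sequences through C2H2 zinc fingers at the end of the protein. Family members differ mainly in the rest of the protein, which recruits co-activators in some and co-repressors in others. Several are induced within minutes to hours by growth factors, injury, hormones or blood flow, and members of the family are known in the brain for roles in axon growth, in glial differentiation and in glioma. In other cell types KLF5 is known as a protein stabilised by YAP.

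The promoter sequences of the 4 genes with the most interactions that had an entry in the RefSeq promoter table (build GRCm38.p6, the assembly of mm10) are shown with that of Klf2, which had the fewest. Each window runs from 250 bases before the transcription start to 50 bases after it. Capitals mark CACCC, the core of the site bound by Kruppel-like factors, and the GC box GGGCGG, each searched on both strands, so that GGGTG and CCGCCC are also capitals.
Klf3, chr5:64803271-64803570, plus strand: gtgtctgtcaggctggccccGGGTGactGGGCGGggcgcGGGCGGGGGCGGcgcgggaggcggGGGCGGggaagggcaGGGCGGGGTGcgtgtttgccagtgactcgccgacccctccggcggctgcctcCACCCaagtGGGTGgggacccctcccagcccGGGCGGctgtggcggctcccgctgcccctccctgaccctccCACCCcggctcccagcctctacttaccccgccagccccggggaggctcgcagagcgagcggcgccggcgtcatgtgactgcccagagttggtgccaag
Klf7, chr1:64121340-64121639, minus strand: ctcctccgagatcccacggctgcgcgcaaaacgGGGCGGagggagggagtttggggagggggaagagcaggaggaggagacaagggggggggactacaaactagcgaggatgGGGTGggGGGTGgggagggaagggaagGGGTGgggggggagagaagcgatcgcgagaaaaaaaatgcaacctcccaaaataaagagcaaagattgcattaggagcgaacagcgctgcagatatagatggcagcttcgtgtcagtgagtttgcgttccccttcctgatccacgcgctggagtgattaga
Klf6, chr13:5861239-5861538, plus strand: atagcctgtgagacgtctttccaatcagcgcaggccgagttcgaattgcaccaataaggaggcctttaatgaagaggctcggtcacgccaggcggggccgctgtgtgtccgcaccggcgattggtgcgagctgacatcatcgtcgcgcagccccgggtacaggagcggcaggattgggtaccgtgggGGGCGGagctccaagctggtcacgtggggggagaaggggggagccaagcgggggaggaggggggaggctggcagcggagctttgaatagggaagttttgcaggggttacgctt
Klf4, chr4:55532426-55532725, minus strand: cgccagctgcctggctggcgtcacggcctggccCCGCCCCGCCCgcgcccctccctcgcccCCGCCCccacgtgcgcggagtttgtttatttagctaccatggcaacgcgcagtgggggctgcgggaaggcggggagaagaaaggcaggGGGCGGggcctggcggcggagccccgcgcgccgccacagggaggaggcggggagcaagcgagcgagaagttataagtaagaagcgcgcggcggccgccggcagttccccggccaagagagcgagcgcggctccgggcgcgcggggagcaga
Klf2, chr8:72318812-72319111, plus strand: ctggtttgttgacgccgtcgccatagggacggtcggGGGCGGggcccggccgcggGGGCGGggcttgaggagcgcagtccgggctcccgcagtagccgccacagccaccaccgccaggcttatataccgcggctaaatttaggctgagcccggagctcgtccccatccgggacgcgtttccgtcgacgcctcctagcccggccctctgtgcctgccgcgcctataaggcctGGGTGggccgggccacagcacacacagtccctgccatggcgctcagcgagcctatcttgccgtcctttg

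An entry was found for 8 of the 10 genes, all but Klf5 and Klf10. The 8 windows had a GC content of 58.3 to 76.7%, against a median of 56.3% over 21263 windows of coding genes. CACCC was found in 6 of the 8 windows and in 59.5% of the windows of coding genes. GGGCGG was found in 7 of 8 and in 46.2%. The window of Klf3 held 5 CACCC and 6 GGGCGG matches, of which 1 pair overlapped, whereas that of Klf6 held 0 and 1. The window of Klf9 held the single match to TGANTCA, a loose pattern for the AP-1 site in which N is any base (6.99% of coding windows). That match read TGAATCA, whereas the usual AP-1 site has C or G in the middle. GGAATG, the core of the TEAD site through which YAP is brought to DNA, was found in 0 of 8 windows and in 13.6% of coding windows. The CArG box of serum response factor was found in 0 of 8 and in 1.52%. These matches describe the letters of short windows and say nothing of binding.

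All 10 genes had at least 1 interaction, and 67.8% of the 20665 autosomal coding genes did. At least 40 interactions were listed for 8 of the 10 genes and for 2.42% of coding genes. The limit of 40 was chosen after the values were seen: Klf9 and Klf10, with 41 each, lay just above it, and Klf15, with 8, was the next below. The count at this limit depended on the counting rule. It was 5 of 10 with a gene-end window of 0 kb (2.18% of coding genes), 3 of 10 when a bin was placed by its midpoint (1.91%) and 0 of 10 after merging of adjacent interactions (0.0145%). The median was 47 interactions per gene, against 3 over all coding genes, whose 95th percentile was 28. A long gene covers more bins than a short gene, so genes of like size were also compared. Among coding genes that covered the same number of bins as a member, the median lay between 1 and 8.5 interactions. Klf3 had 108 interactions, a number that 0.0837% of the 2390 coding genes with 4 bins reached, Klf3 included. Klf7 covered 11 bins with 95 interactions, a number that 1.52% of the 330 genes of that size reached. For Klf2 and Klf15 the same shares were 33.0% and 33.4%, so these genes were not unusual for their size.

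**Figure D1:**
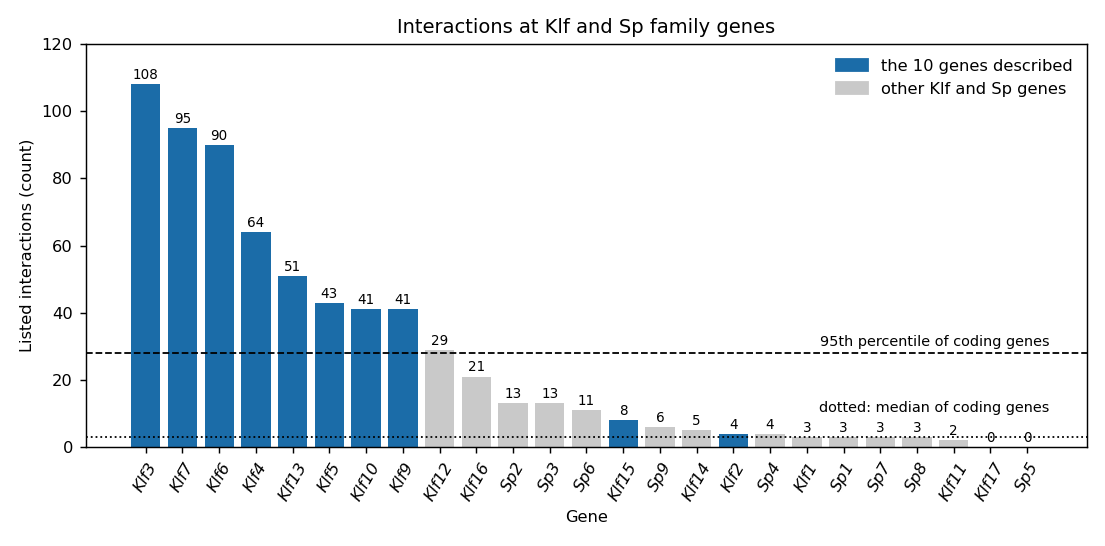
Number of listed interactions (vertical axis) at each autosomal Klf and Sp gene (horizontal axis), with the 10 genes described in blue and the other family genes in grey. The 8 tallest bars, from 41 to 108, are all blue and lie above the 95th percentile of coding genes (28, dashed), whereas Klf15 (8) and Klf2 (4) stand among the grey bars.

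The rest of the family had lower counts. Of the other 16 Klf and Sp genes, Klf8 lies on X, where no interaction was listed. Of the 15 on autosomes, 13 had an interaction and 0 had 40 or more, with a median of 4 and a range of 0 to 29. Over all coding genes the shares were 67.8% and 2.42% and the median 3. The other family genes thus stood near the background in their median and at the limit of 40, with a higher share that had an interaction. Klf12, a CtBP-binding repressor gene of 43 bins, had 29, and Klf16 had 21 in bins that also hold an end of Rexo1. Sp2 and Sp3, which encode widely expressed GC-box factors, had 13 each and Sp1, the founding member, had 3. Klf17 and Sp5 had 0. The 10 genes were chosen with the counts known, so this contrast follows in part from the choice.

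Among the activator-type factors, Klf6 had the most widely spread contacts. Klf6, induced by injury and growth stimuli and studied as a tumor suppressor, lies at chr13:5861489-5870393 in a long stretch without other coding genes. The nearest coding neighbours are Akr1e1, 1252 kb away at lower coordinates, and Pitrm1, 678 kb away at higher coordinates. Its 90 interactions were almost evenly split, 44 to lower and 46 to higher coordinates. They reached 64 partner bins in 26 separate blocks, from 80 to 800 kb on the lower side and from 190 to 670 kb on the higher side. The bin with the transcription start took 62 of the 90, and the next bin, at the distal end of the gene, took 22. The densest block, chr13:6220001-6310000, had 16 interactions in 9 bins. Of the partners, 1 bin held a coding-gene end, that of Pitrm1, an organelle protease gene whose single listed interaction was this one. The other 89 interactions went to bins between coding genes, and 30 of the 90 spanned at least 500 kb.

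Klf4 was the counterpart with all contacts on a single side. Klf4, a pluripotency and differentiation factor used in reprogramming to stem cells, lies at chr4:55527137-55532475 on the minus strand. Its 64 interactions all went to higher coordinates, upstream of the gene, where the next coding gene, Actl7b, is 1208 kb away. At lower coordinates Rad23b is 135 kb away, and no partner was listed there. The partners filled 57 bins in 11 blocks from 90 to 970 kb, close to the upper limit of the list, and 27 interactions spanned 500 kb or more. All 64 went to bins between coding genes. The promoter bin accounted for 57 and the other bin of the gene for 7. That promoter bin also holds an end of Gm12506, a long noncoding RNA gene, so its 57 interactions cannot be assigned to either gene. The partner bin with the most interactions of any kind, chr4:55650001-55660000, took part in 29, of which 2 were with Klf4.

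Klf5, a factor of proliferating epithelium, lies at chr14:99298691-99313412 and had 43 interactions, 5 to lower and 38 to higher coordinates. Of its bins, that at the low-coordinate end had 25, the middle bin 16 and the last 2. The 5 on the lower side ended inside Pibf1, the neighbour 43.8 kb away, which encodes a centrosomal protein. On the higher side the contacts formed 10 blocks across a gap of 553 kb and ended on Klf12. Thus the block chr14:99860001-99910000 held 6 interactions between Klf5 and the body of Klf12, 1 of them at the low-coordinate end of that gene. The promoter entry of Klf12 is on the minus strand, so this end is opposite its start. It was the only link between 2 family genes that involved the 10 genes, and the next nearest pair on a chromosome, Klf2 and Klf1, is 12580 kb apart, beyond the reach of the list.

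Klf7, known for axon outgrowth and neuronal differentiation, is the longest of the 10 genes, 92.9 kb at chr1:64029448-64122345 on the minus strand. Of its 95 interactions, 70 went to higher coordinates, which is upstream, 21 to lower coordinates and 4 joined bins within the gene. The promoter bin had 41 and its neighbour inside the gene 15, whereas the other 9 bins had 2 to 9 each. An end of the long noncoding RNA gene Gm35880 lies in the promoter bin too, so its 41 cannot be assigned to either gene. The upstream contacts filled 27 bins without a gap, chr1:64190001-64460000, with 66 interactions. In that block the bins chr1:64300001-64310000 and chr1:64440001-64450000 were each joined to every one of the 11 bins of Klf7. The second of these took part in 44 interactions in all. Beyond the block, 4 interactions reached the promoter bin of Creb1, the cAMP-response factor gene 410 kb away. On the other side, 4933402D24Rik was contacted 10 times, 9 of them at bins of its promoter, Fastkd2, a mitochondrial RNA-binding protein gene, 3 times and Mdh1b, a malate dehydrogenase-like gene, 2 times. These counts overlap. Both interactions at Mdh1b met a bin that also holds an end of Fastkd2. The remaining interaction at Fastkd2 met a bin that also holds an end of 4933402D24Rik.

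Klf2, the flow-responsive factor of endothelium that also keeps T cells and macrophages quiescent, had 4 interactions, the fewest. It lies at chr8:72319062-72321654 with 55 other coding genes within 1 Mb, the most of the 10 genes. All 4 came from its second bin and reached 30 to 60 kb, with 2 partners on each side. The bin with its transcription start had 0, but the start lies 938 bases from the border to the second bin, which is within the resolution of the list. The higher partners lay inside Eps15l1, an endocytic adaptor gene 19.3 kb away.

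**Figure D2:**
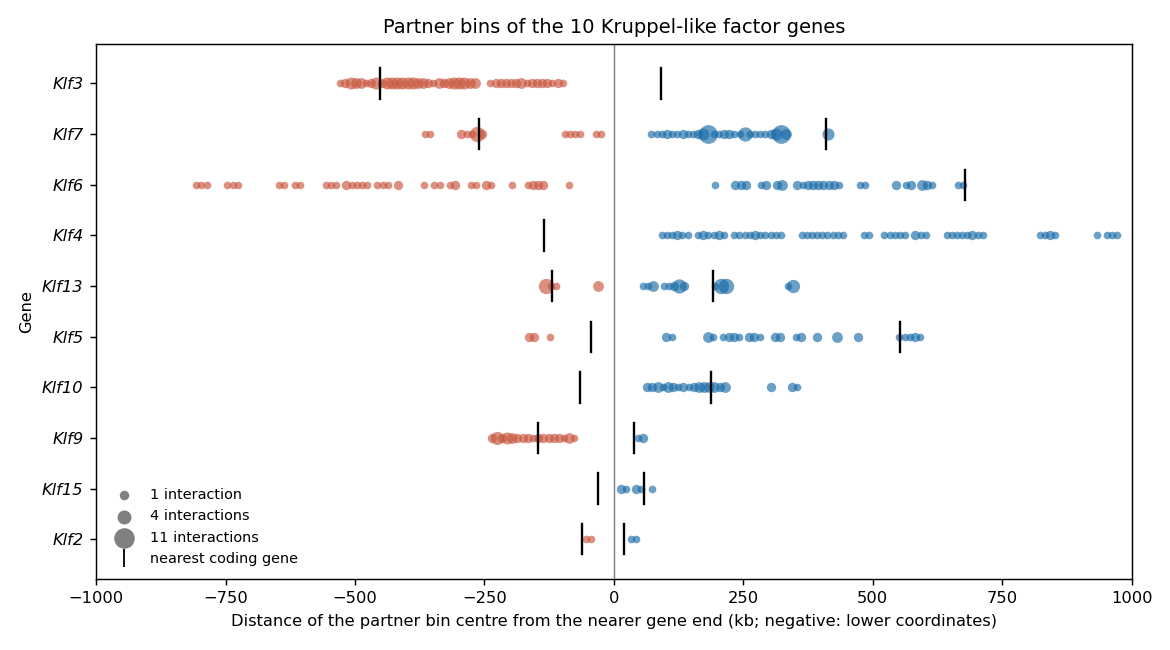
Position of each partner bin (horizontal axis, kb from the nearer end of the gene, negative at lower coordinates) for each gene (vertical axis, ordered by interactions). Point area grows with the number of interactions between bin and gene, and black bars mark the nearest coding gene within 1000 kb. Klf3, Klf4, Klf10 and Klf15 have partners on a single side, and Klf6 has 44 on the lower and 46 on the higher side.

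Of the factors known as repressors, Klf3 had the highest count of all 10 genes. Klf3 recruits the co-repressor CtBP and acts in blood cells and fat. It lies at chr5:64803521-64832901 on the plus strand, and its first bins also hold Gm38457, a coding gene that overlaps its start, so 77 of the 108 interactions cannot be assigned to either gene. All 108 went upstream, to lower coordinates, in 2 blocks. The nearer, chr5:64560001-64710000, had 27 interactions in 15 bins. The farther, chr5:64270001-64540000, had 81 in 27 bins without a gap, and ended inside Tbc1d1, a Rab GTPase-activating gene of glucose uptake and the next coding gene at 452 kb. Of the 108, 22 lay on Tbc1d1 and 6 of these at its end, which is the end opposite to its promoter entries. From the promoter bin to the last, the bins of Klf3 had 39, 38, 18 and 13 interactions, a fall along the gene away from its partners.

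Klf9, Klf10 and Klf13 bind the co-repressor Sin3. Klf9, induced by thyroid hormone and glucocorticoids in neurons and oligodendrocytes, lies at chr19:23141226-23168129 and had 41 interactions, 38 of them upstream. These 38 formed a single block of 17 bins, chr19:22900001-23070000, that ran across the gap of 146 kb and into Trpm3, an ion channel gene, where 25 interactions lay. Only 2 of the 25 were at an end of Trpm3, again not the promoter end. The bin chr19:22910001-22920000, inside Trpm3, was joined to all 5 bins of Klf9. The highest count at Klf9 was in the bin just before its start, with 18, against 15 in the bin that holds the start, 1225 bases from the border between them. The other 3 interactions entered Smc5, a gene of chromosome maintenance 38.3 kb downstream.

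Klf10, first described as a TGF-beta-inducible early gene, lies at chr15:38291464-38300711. All 41 of its interactions went to higher coordinates. A block of 16 bins, chr15:38360001-38520000, took 36 of them and ended on Azin1, a regulator of polyamine synthesis, with 11 interactions over that gene and 6 at its ends. Its bins had 9, 17 and 15 interactions. The partner bin with the most interactions of any kind, at Azin1, took part in 19, of which 3 were with Klf10. A single interaction of 360 kb reached an end of Atp6v1c1, a subunit gene of the vacuolar proton pump.

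Klf13, a factor of lymphocytes, heart and oligodendrocytes, had the highest share of partners at ends of other coding genes, although Klf7 had 16 such interactions against 15 and Klf9 had more of its partners on other genes as a whole. It lies at chr7:63886351-63938915 on the minus strand and had 51 interactions, 38 upstream, 12 downstream and 1 within the gene. Of the 50 that left the gene, 15 (30.0%) met an end of another coding gene. Trpm1, an ion channel gene of retina and melanocytes, was met 8 times, 7 of them at bins of a promoter entry, and Mtmr10, a phosphatase-family gene, 5 times, all at its promoter. The bins chr7:64140001-64150000, chr7:64150001-64160000 and chr7:63750001-63760000 were each joined to all 7 bins of Klf13, the last of them inside Otud7a, a deubiquitinase gene of the brain. Of the bins of Klf13, 2 also hold an end of E030018B13Rik, a coding gene within it.

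Klf15, a glucocorticoid-induced metabolic regulator of liver, muscle and astrocytes, had 8 interactions at chr6:90461043-90491803. Of these, 7 went downstream, within 100 kb, and 1 joined bins of the gene. Its promoter bin had 5. The contacts ended inside Aldh1l1, an astrocyte marker gene 59.0 kb away, with 2 interactions on that gene and 1 at its promoter. With 33 other coding genes within 1 Mb, Klf15 and Klf2 had the most crowded surroundings of the 10.

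**Figure D3:**
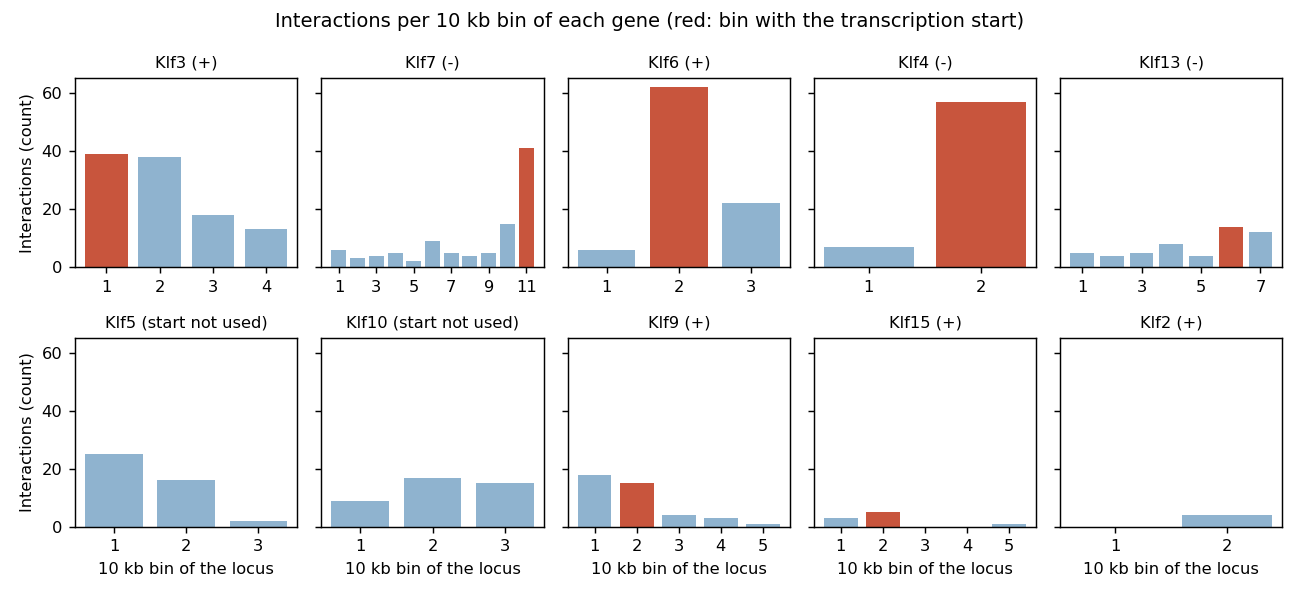
Interactions (vertical axis, count) in each 10 kb bin of each gene (horizontal axis, bins in order of coordinate), with the bin of the transcription start in red where a promoter entry was found and the strand beside the name. The start bin is the highest at Klf3, Klf7, Klf6, Klf4, Klf13 and Klf15, second at Klf9 and without interactions at Klf2.

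The bin with the transcription start was thus the most connected bin in 6 of the 8 genes with a promoter entry. How often this holds over all coding genes was not counted, so it cannot be called a trait of these genes. At Klf6 and Klf4 it stood far above the other bins, with 62 and 57 interactions, whereas at Klf3 the bin after it was nearly level, with 39 against 38. The leads at Klf13 (14 against 12) and Klf15 (5 against 3) were also small. No spread between libraries exists to judge such small differences. Partner bins joined to every bin of the gene were listed for Klf3 (11 of 42), Klf7 (2 of 41), Klf13 (3 of 17) and Klf9 (1 of 19). They were also listed for Klf10 (7 of 19), Klf5 (2 of 26), Klf6 (2 of 64) and Klf4 (7 of 57). These genes cover from 2 bins (Klf4) to 11 (Klf7), so the counts are not alike, and no share over coding genes was counted. At Klf2 and Klf15 there could be 0 only, since 1 of 2 and 3 of 5 of their bins had any interaction.

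The side on which the partners lay was set beside the distance to the nearest coding gene on either side. Of the 9 genes with unequal numbers on the sides, 8 had more partners on the side of the farther neighbour. Over coding genes with at least 1 interaction this was so for 55.6% of 13265, and over those with at least 40 for 69.4% of 494. Klf6 was the exception, with 46 partners towards Pitrm1 and 44 towards the wider gap. Partners all on a single side were listed for Klf3, Klf4, Klf10 and Klf15, and for 34.7% of the 501 coding genes with at least 40 interactions. Klf15, with 8 interactions, is not in that class, and no share was counted for genes with few interactions. A single-sided pattern was thus not rare among genes with many interactions.

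Partners lay mostly outside genes. Of the 539 interactions that left their gene, 420 (77.9%) went to bins between coding genes, 70 (13.0%) to the inside of another gene and 49 (9.09%) to an end of another coding gene. Over all coding genes, with each interaction counted for every gene it touched, the shares were 30.9%, 21.2% and 47.9%. The genes differed: the share at coding-gene ends was 0% at Klf2 and Klf4, 1.11% at Klf6, 2.33% at Klf5, 4.88% at Klf9 and 5.56% at Klf3. It was higher at Klf15 (14.3%, of 7 interactions), Klf10 (17.1%), Klf7 (17.6%) and Klf13 (30.0%). The number of other coding genes within 1 Mb was 2 each at Klf4 and Klf6, 5 at Klf5, 8 at Klf9, 12 at Klf13 and 14 at Klf10. It was 22 at Klf3, 23 at Klf7, 33 at Klf15 and 55 at Klf2, whose share rests on 4 interactions. The part of gene density in these shares was not tested. Coding genes that lay wholly between a gene and its farthest partner numbered 3 at Klf7, 2 at Klf13, 1 at Klf10 and 0 at the other genes, and all 6 were themselves contacted. How often such genes are contacted over all coding genes was not counted.

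**Figure D4:**
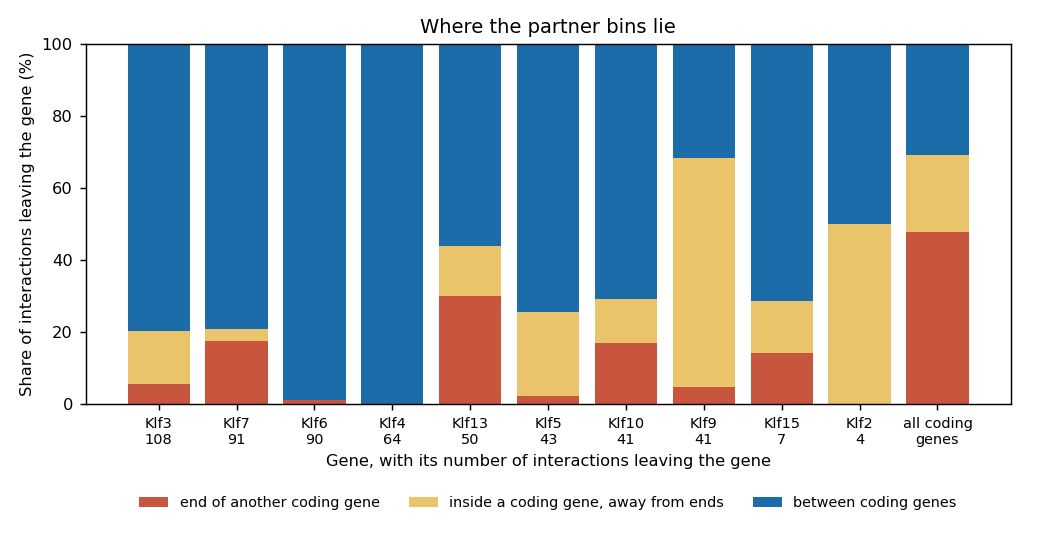
Share of the interactions that leave each gene (vertical axis, percent) whose partner bin holds an end of another coding gene, lies inside a coding gene or lies between coding genes, with the number of such interactions under each name. The blue part, between coding genes, is the largest at all 10 genes except Klf9 (where 26 of 41 lie inside genes) and Klf2 (level, 2 and 2), whereas over all coding genes it is 30.9%.

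Distances were longer than in the list as a whole. The 545 interactions had a median span of 270 kb and an interquartile range of 170 to 410 kb, against a median of 180 kb for all interactions. A span of at least 500 kb was reached by 13.8% of them, and by 9.57% of the list. The medians per gene ran from 45 kb at Klf2 and 60 kb at Klf15, through 170 kb at Klf9, Klf10 and Klf13, to 360 kb at Klf3, 405 kb at Klf6 and 415 kb at Klf4. All 75 interactions of at least 500 kb belonged to Klf6 (30), Klf4 (27), Klf3 (12) and Klf5 (6).

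The shape of the contacts separated genes with similar totals. When adjacent interactions, those within 1 bin of each other at both anchors, were joined into single contacts, the 545 interactions became 83 contacts, a median of 6.5 per gene against 2 over all coding genes. The 108 interactions of Klf3 became 2 contacts and the 41 of Klf9 became 2, since they form unbroken stretches. The 90 of Klf6 became 26, the 95 of Klf7 became 13, the 43 of Klf5 became 12 and the 64 of Klf4 became 11. Only 13 of the 545 (2.39%) had no adjacent interaction, against 10.1% of the list. The list holds no heights, so it cannot say whether a stretch is a broad contact or several narrow ones side by side.

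**Figure D5:**
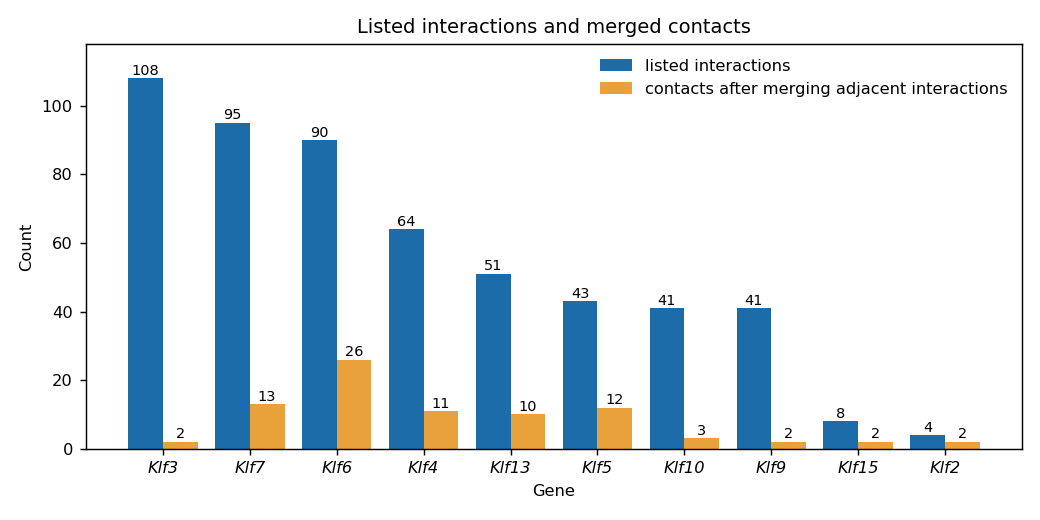
Listed interactions (blue) and contacts after joining adjacent interactions (orange) as counts (vertical axis) for each gene (horizontal axis). Klf3 falls from 108 to 2 and Klf9 from 41 to 2, whereas Klf6 keeps the most contacts, 26.

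Some partner bins were tied to the Klf gene alone. A partner bin with no interaction other than those with the gene made up 10 of 19 at Klf9 (52.6%), 11 of 26 at Klf5 (42.3%) and 23 of 64 at Klf6 (35.9%). At Klf13 this was 1 of 17 (5.88%), at Klf4 6 of 57 (10.5%) and at Klf3 5 of 42 (11.9%). Over coding genes with at least 40 interactions the median was 28.6% and the interquartile range 13.9 to 47.6%, so the genes lay on both sides of it. Partner bins of Klf13 were also in contact with Trpm1 (8 of 17) and Mtmr10 (4 of 17), and those of Klf7 with 4933402D24Rik (9 of 41) and Creb1 (7 of 41). Those of Klf4, Klf5 and Klf6 were in contact with the end of no other coding gene that lay outside their own bins. Interactions among the partner bins themselves numbered 68 at Klf4, 62 at Klf7, 49 at Klf3 and 44 at Klf6, and 0 at Klf15.

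Genes of proteins that act with Kruppel-like factors or upstream of them were counted from a fixed list of 16. Of these, 14 had an interaction, 3 had 40 or more, and the median was 15.5, beside 67.8%, 2.42% and 3 over all coding genes. Many of the 16 are long: the 3 with 40 or more cover 16 to 18 bins, and coding genes of 16, 17 and 18 bins had medians of 10.5, 8 and 8.5. Mef2a and Mef2c, which encode factors that switch on Klf2 and Klf4 in endothelium, had 99 and 60, numbers that 1.67% and 5.36% of coding genes with as many bins reached. Fbxw7, a ubiquitin ligase subunit that marks KLF5 for degradation, had 85 (1.89%). Map2k5 and Mapk7, kinase genes of the pathway that acts through the Mef2 factors, had 3 and 6. Of the co-repressors, Ctbp2 had 26 and Ctbp1 6, Sin3a had 21 and Sin3b 0, and Hdac1 had 9 and Hdac2 0. The acetyltransferase genes Ep300, Kat2b and Crebbp had 28, 17 and 14. Bins of Mef2a also hold an end of Lysmd4, and those of Mapk7, Ctbp2, Sin3a, Hdac1, Kat2b and Crebbp hold ends of other coding genes. Their counts therefore cannot be assigned wholly to the genes named.

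Markers of the cell types that such tissue can hold were counted in the same way, since Klf2 and Klf4 are also active in endothelium and macrophages. The background for these counts is 67.8% of coding genes with an interaction and a median of 3. All 8 neural stem cell or radial glia markers had an interaction, with a median of 25.5, and 5 of 6 ependymal markers did, with a median of 12 and 0 at Rsph1. Of the endothelial markers, 5 of 6 were connected (median 8, with 0 at Tie1), and of those of microglia and macrophages 6 of 6 were (median 3). Neuronal markers were connected at 5 of 6 genes (median 2) and autosomal oligodendrocyte lineage markers at 4 of 5 (median 8). The shares of these lists all lay above the background of 67.8%, but each list holds only 5 to 8 autosomal genes. Their medians ran from 2 to 25.5, against 3. Genes of like size were not compared here, so the counts cannot tell which cell types were present. The part of each cell type in the contacts of the Klf genes was not tested.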

How the data were processed

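Per the labels, 4 mouse libraries were made with an MNase HiChIP kit and an H3K27ac antibody, 2 of YAP-M tumor and 2 of neural stem cells. The titles of all 4 samples name H3K27ac ChIP-seq and do not use the word HiChIP. Per the submitters' processing notes, BWA and mm10 were used; those sources do not name the interaction caller, its threshold or any pooling. The authors deposited 1 list of positions, which per the file header holds the 2 anchor bins of each interaction and no score. The labels share replicate numbers, but the list has no values per library.

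Gene positions came from RefSeq for GRCm38.p6, and strands and promoters from its promoter table. A bin counted for a gene if it overlapped the gene or 2.5 kb around either end. An end bin overlapped 2.5 kb to either side of an end. Each interaction counted once per gene. Members and lists were chosen with earlier results of these data known. Partner genes were named by number of interactions, up to 3 per gene; others named were chosen after their values were seen. No test was run. Counting was tested on simulated data. Python 3.11.15, pandas 2.3.3, numpy 2.4.6 and matplotlib 3.10.9 were used.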

Additional observations from a re-analysis of the deposited data

How the results depend on the processing

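No paired analysis was possible because libraries have no values of their own in the list, and no replicate could be left out. Depth is unknown, so 0 interactions means none listed. A stricter score could not be set; distance and adjacent support were used in its place. Over 8 alternatives, 56 of 80 counts per gene stayed within 1.5 times the reported one. Merging of adjacent interactions moved all 10, to 83 contacts in all and a median of 6.5, and changed the order, with Klf6 first. Placing a bin by its midpoint gave 328 interactions and a median of 20, with 0 at Klf2 and 7 at Klf4, whose promoter bin then no longer counted. With gene ends alone, Klf3 had 52 interactions, Klf7 63, Klf13 30 and Klf6 90, the most. From 8 of 10, the genes with at least 40 interactions fell to 6 with gene ends alone or from 100 kb upward, 5 with a window of 0 kb, 3 by midpoint and 0 after merging. The share of all coding genes at this limit moved too. From 2.42% it went to 0.595% with gene ends alone and 1.93% from 100 kb upward. It was 2.18% with a window of 0 kb, 1.91% by midpoint and 0.0145% after merging. With a window of 0 kb Klf9 had 22 and Klf15 5. From 100 kb upward Klf2 had 0 and Klf15 1. Apart from merging and midpoint, the total, the median and the share of coding genes with an interaction stayed within 1.5 times.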

Other observations

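Ends of long noncoding RNA genes, which carry no known role here, stood in many partner bins. At Klf7, 18 interactions met an end of Gm35803, in the gap upstream of the gene. At Klf3, 12 met an end of Gm43837, 8 of Gm52815 and 6 each of 1700027F09Rik, Gm31363, Gm31423 and Gm3716. At Klf13, 10 met an end of Gm20670, and at Klf6, 6 met an end of Gm35615. At Klf10, 6 met Gm41307, 6 met Gm41308 and 6 met the microRNA gene Mir6951, which lies in Azin1. These genes were chosen by their values, and the annotation is dense enough in such genes that an end in a 10 kb bin is no link by itself.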
